A study of Mus musculus with 8 samples.

Results

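The subunits that move secretory and membrane proteins into the endoplasmic reticulum (ER) and cut off their signal peptides were followed in beta cell samples of mice on a high-fat or a control diet. The 10 genes were Sec61a1, Sec61b and Sec61g of the Sec61 channel, Ssr1 and Ssr3 of the translocon-associated protein (TRAP) complex, and Sec11a, Sec11c, Spcs1, Spcs2 and Spcs3 of signal peptidase. They are 10 of 30028 gene names on the array. Every non-control probe that the scanner files give one of these names was taken, which made 17 of 39429 probes. All 17 were well above background on all 8 arrays and passed the filter on dim probes, which kept 26084 probes. Sec61a1, Sec61g, Sec11c and Spcs1 had 1 probe each, and the other 6 genes had several.

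The samples were labelled as pancreatic beta cells of C57BL/6 mice, 4 on a control (chow) diet and 4 on a high-fat diet, with 1 single-colour Agilent array for each sample. The titles call the samples biological replicates, and nothing says how many animals stand behind a sample, so p-values measure only the spread between these samples. The age of the mice, the length of the diets and the way the cells were isolated are not given in the sources used here. The 8 arrays lay on 2 slides with 2 arrays of each diet per slide. Control arrays sat at positions 1 and 3 and high-fat arrays at positions 2 and 4 of both slides, so diet and position cannot be told apart.

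Proteins bound for secretion carry an N-terminal signal peptide that directs the ribosome to the ER membrane, where the chain threads through the Sec61 channel. The TRAP complex sits beside the channel and helps signal peptides that open it poorly, and signal peptidase removes the signal peptide on the luminal side. In beta cells this route turns preproinsulin into proinsulin, a major load on their ER.

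Levels are given as log2 of the processed spot signal minus the 75th percentile of the array, and a difference is the high-fat mean minus the control mean of these levels, with its SE from limma. Between 63.6% and 68.6% of the spots of an array were well above background, the 75th percentile lay between 335.8 and 715.4 intensity units, and no spot was saturated. The number of arrays limits the precision: the SE of a log2 difference had a median of 0.17 over all probes and 0.14 over the 17. As these are bulk samples, fewer cells of a type and less RNA per cell cannot be told apart. All 12 beta cell markers were well above background on all 8 arrays, and so were all 21 acinar cell markers, 8 of 9 alpha cell markers, and all markers of delta and PP cells, macrophages, endothelial cells and stellate cells. Markers of the labelled cell type were thus present together with those of other cells.

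The probes are 60 bases long, and the printed ones are those on which probes of one gene, or of a gene and its copy, are set side by side below. Probe positions follow the scanner files (mm9); no gene annotation of that build was used here, so exons and UTRs are not named. The Sec61b probe A_55_P2051962 lies at chr4:47495923-47495982 on the plus strand. It shares 38 bases with probe A_55_P2045482 of the Sec61b-like locus LOC102636661 at chr15:100127873-100127932, and 30 bases of each are printed, with the first 21 shared bases in capitals.
Sec61b: acgcgatcaTAGATTGGGCTACATCCATCT
Sec61b-like: acgtgatctTAGATTGGGCTACATCCATCT
No other probe of the 10 genes shared 20 or more bases with a probe of another gene. The probes of Spcs2 lie 2138 bases apart on the minus strand, A_52_P937 at chr7:106988218-106988277 and A_55_P2183498 downstream at chr7:106986080-106986139. The first is printed whole, and of the second 30 bases are printed with the AATAAA motif, the usual polyadenylation signal, in capitals.
Spcs2 upstream: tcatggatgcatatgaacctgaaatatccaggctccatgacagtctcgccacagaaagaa
Spcs2 downstream: tgcgcccccttaAATAAAcactccaactat
The motif, searched on the probe strand, was in 2 of the 17 probes, this one and that of Sec61a1, against 12.6% of all probes. The upstream probes of Ssr3 (A_52_P312398, chr3:65191675-65191734, minus strand) and Sec11a (A_55_P2002562, chr7:88068000-88068059, minus strand) are shown because each lies far upstream, by 7879 and 7353 bases, of a partner probe that gave a like difference.
Ssr3 upstream: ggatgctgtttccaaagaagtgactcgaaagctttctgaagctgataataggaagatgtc
Sec11a upstream: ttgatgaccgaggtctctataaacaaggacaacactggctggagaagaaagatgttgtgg

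The arrays were compared to ask how expression of these genes differed between the diets. Of the 17 probes, 15 stood above 0, where 48% of all probes tested did, and 2 stood below 0, the most downstream probes of Spcs2 and Ssr1. The median log2 difference was 0.28, a 1.21-fold higher signal, against -0.010 over all probes. With the brightest probe standing for each gene, all 10 genes stood above 0, from 0.21 for Sec61a1 and Spcs3 to 0.64 for Sec11c. No probe passed the test of limma: 0 of 17 had an adjusted p under 0.05, as did 0% of all probes in either direction, and adjusted p ran from 0.610 to 0.969. At an unadjusted p under 0.05 there were 6 probes higher, of Sec11c, Spcs1, Spcs2, Spcs3, Ssr1 and Ssr3, against a background of 2.41%, and 0 lower, against 3.39%. The groups did not overlap for 1 probe that was higher, that of Sec11c, against 1.64% of all probes, and for 0 that were lower, against 1.73%. Most of these directions turned with normexp background correction on all spots, but not once smeared spots were left out. With normexp, 12 of the 17 probes turned sign and the median was -0.13, while the median of all probes was 0.19. Without the 7 spots of high-fat replicate 2 that a bright smear covers, none of which belongs to the 10 genes, the normexp median was 0.29 and 15 probes again stood above 0. In simulated data with the spread of all probes on these arrays, 200 of 25923 probes were shifted. At an adjusted p under 0.05, limma recovered 0 of the 200 shifted by 0.5 and 49% of those shifted by 1 on the log2 scale. With 4 arrays a diet, a difference of 0.5 was thus not recovered in that setting. The spread of the 17 probes alone was not simulated.

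**Figure D1:**
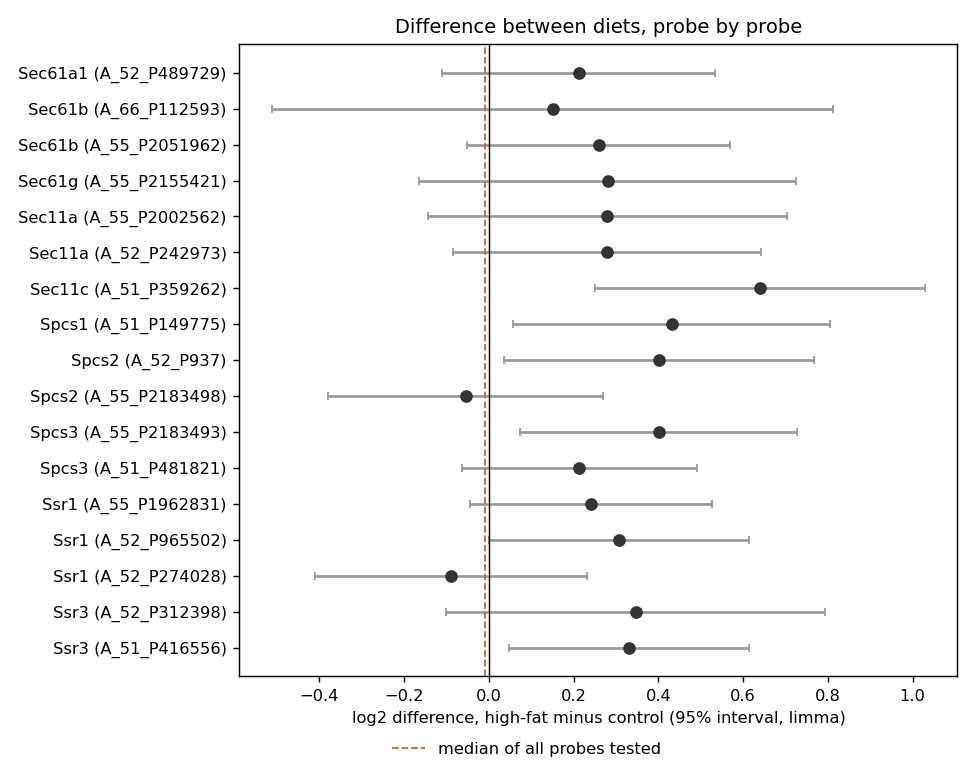
Log2 difference between the diets (high-fat minus control, 4 arrays each) for each of the 17 probes, with 95% intervals from limma, and the median of all probes tested as a dashed line. In this scaling 15 of the 17 points lie above 0 and the point of Sec11c lies farthest from it. With normexp background correction on all spots 12 of the signs turn, and without the smeared spots 15 again lie above 0.

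Sec61a1 encodes the subunit that forms the pore of the channel. Its level was 4.97, 5.06, 5.34 and 4.78 on the 4 control arrays and 5.10, 5.33, 5.20 and 5.37 on the 4 high-fat arrays, in replicate order, at chr6:88453605-88453664 on the minus strand. Control replicate 3 lay among the highest high-fat arrays and the groups overlapped. The difference was 0.21 ± 0.14, or 1.16-fold, with an unadjusted p of 0.17.

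Sec61b and Sec61g are the small single-span subunits that flank the pore. The downstream Sec61b probe read 5.82, 6.10, 6.19 and 5.99 in control and 6.12, 6.56, 6.25 and 6.21 in high-fat samples. High-fat replicate 2 stood above the other 7 arrays, and high-fat replicate 1 fell inside the control range. The difference was 0.26 ± 0.14 (1.20-fold). The Sec61b-like locus, whose probe shares 38 bases with the downstream Sec61b probe, differed by 0.24 ± 0.15. Signal of the gene and of its copy cannot be told apart on these probes. The other probe of that locus, without the shared stretch, differed by 0.30 ± 0.17.

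The upstream Sec61b probe (A_66_P112593, chr4:47487542-47487601) had the largest SE of the 17. It read 2.11, 2.48, 3.53 and 2.53 in control and 2.86, 3.10, 2.57 and 2.71 in high-fat samples. Control replicate 3 was the highest and control replicate 1 the lowest of all 8 arrays. The difference of 0.15 ± 0.29 was 0.69 on slide 1 and -0.39 on slide 2, and it was -0.034 without control replicate 1.

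Sec61g (chr11:16401737-16401796, minus strand) read 5.81, 6.30, 5.98 and 5.63 in control and 6.20, 6.59, 5.87 and 6.18 in high-fat samples. The groups overlapped over most of their range, with replicate 2 the highest of each diet. The difference was 0.28 ± 0.19 (1.21-fold). Probes of the Sec61g-like loci LOC102637269 and LOC102634065 differed by 0.30 ± 0.16 and 0.33 ± 0.19, and neither shared 20 bases with the Sec61g probe.

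Ssr1 and Ssr3 encode the alpha and gamma subunits of TRAP. The 2 probes of Ssr3, 7879 bases apart, differed by 0.33 ± 0.12 (A_51_P416556, unadjusted p = 0.027) and 0.35 ± 0.20 (A_52_P312398, printed above). On the first, the level was 3.94, 4.09, 3.92 and 3.83 in control and 4.02, 4.36, 4.28 and 4.45 in high-fat samples. High-fat replicates 2, 3 and 4 lay above every control array, and high-fat replicate 1 lay below control replicate 2. The adjusted p by limma was 0.792.

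The 3 probes of Ssr1 did not give 1 value. The most upstream and brightest, A_55_P1962831 at chr13:38070087-38070146 on the minus strand, read 4.05, 4.28, 4.12 and 3.85 in control and 4.15, 4.40, 4.28 and 4.42 in high-fat samples, a difference of 0.24 ± 0.13. Here too 3 high-fat arrays lay above every control array and replicate 1 did not. The probe 2181 bases downstream differed by 0.31 ± 0.13 (unadjusted p = 0.049), with control levels from -0.28 to 0.09 and high-fat levels from 0.0032 to 0.44. The probe 6615 bases downstream, A_52_P274028, differed by -0.090 ± 0.14, with control levels from -0.66 to -0.16 and high-fat levels from -0.69 to -0.35. All 3 were well above background on every array, and whether they read the same transcripts is not known from the files.

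Sec11c encodes 1 of the 2 alternative catalytic subunits of signal peptidase, and its difference was the largest of the 10 genes. Its probe, A_51_P359262 on the plus strand of chromosome 18, spans 2083 bases of the genome, so its 60 bases match spliced RNA. The level was 2.69, 2.95, 2.93 and 2.94 on the control arrays and 3.05, 3.57, 3.65 and 3.79 on the high-fat arrays. All 4 high-fat values exceeded all 4 control values, with high-fat replicate 1 the closest to the control range. The difference was 0.64 ± 0.17 (1.56-fold, 95% interval 0.25 to 1.03), with an unadjusted p of 0.0052 and an adjusted p by limma of 0.610. Its p was the 221st smallest of the 26082 probes tested. Over the alternatives the difference lay between 0.22, with normexp, and 0.79, without high-fat replicate 1, and adjusted p between 0.133 and 1.00. In the authors' deposited table, on its own log2 scale, the highest control value of Sec11c was 11.99 and the lowest high-fat value 11.95, so there the groups overlapped.

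Sec11a encodes the other catalytic subunit. Its brighter probe (A_52_P242973, chr7:88060647-88060706) read 3.50, 3.75, 3.37 and 3.37 in control and 3.52, 4.03, 3.58 and 3.97 in high-fat samples. High-fat replicates 2 and 4 lay above the control range and replicates 1 and 3 within it. The difference was 0.28 ± 0.16, and the upstream probe printed above, 7353 bases away, gave 0.28 ± 0.18. To set the catalytic subunits against each other, a comparison chosen after their values were seen, the log2 ratio of Sec11c to Sec11a was taken within each array. It differed by 0.36 between the diets with either Sec11a probe, with an exact two-sided permutation p of 0.171 for the brighter and 0.143 for the other, where 4 against 4 arrays allow 0.0286 at the least. The longest stretch that the Sec11c probe shared with a Sec11a probe was 6 bases.

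Spcs1 and Spcs2 encode accessory membrane subunits of signal peptidase. Spcs1 (chr14:31813232-31813291, minus strand) read 4.94, 5.21, 4.90 and 5.06 in control and 5.15, 5.57 and 5.64 in high-fat replicates 1, 3 and 4. The spot of high-fat replicate 2 was marked as an outlier by the scanner software and left out. High-fat replicates 3 and 4 lay above every control array and replicate 1 did not. The difference was 0.43 ± 0.16 over 4 control and 3 high-fat arrays (unadjusted p = 0.029, adjusted p = 0.796 by limma). It was 0.078 on slide 1 and 0.63 on slide 2, and 0.30 in the authors' deposited table, which holds a value for all 8 arrays.

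The upstream Spcs2 probe read 3.67, 4.11, 3.71 and 3.70 in control and 3.96, 4.52, 4.09 and 4.22 in high-fat samples. Control replicate 2 stood apart from the other 3 control arrays and inside the high-fat range. The difference was 0.40 ± 0.16 (1.32-fold, unadjusted p = 0.035). The downstream probe, which holds AATAAA, read 1.86, 1.82, 1.76 and 1.72 in control and 1.64, 1.76, 1.45 and 2.08 in high-fat samples. Its control arrays lay close together and its high-fat arrays on both sides of them, a difference of -0.055 ± 0.14 that was 0.018 with median scaling. Their intervals, 0.036 to 0.77 and -0.38 to 0.27, overlapped, and the difference between the probes was not tested.

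Spcs3 encodes the glycosylated subunit that lies mostly in the ER lumen. Its upstream probe (A_55_P2183493, chr8:55608608-55608667, minus strand) read 1.92, 2.13, 1.95 and 2.06 in control and 2.07, 2.61, 2.39 and 2.60 in high-fat samples. Replicates 2, 3 and 4 of the high-fat diet lay above every control array. The difference was 0.40 ± 0.14 (1.32-fold, unadjusted p = 0.022, adjusted p = 0.783 by limma). The brighter probe, 2593 bases downstream, read 2.94, 2.96, 3.15 and 2.93 in control and 2.95, 3.33, 3.29 and 3.27 in high-fat samples. The same 3 high-fat arrays lay above the control range, and the difference was 0.21 ± 0.12.

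**Figure D2:**
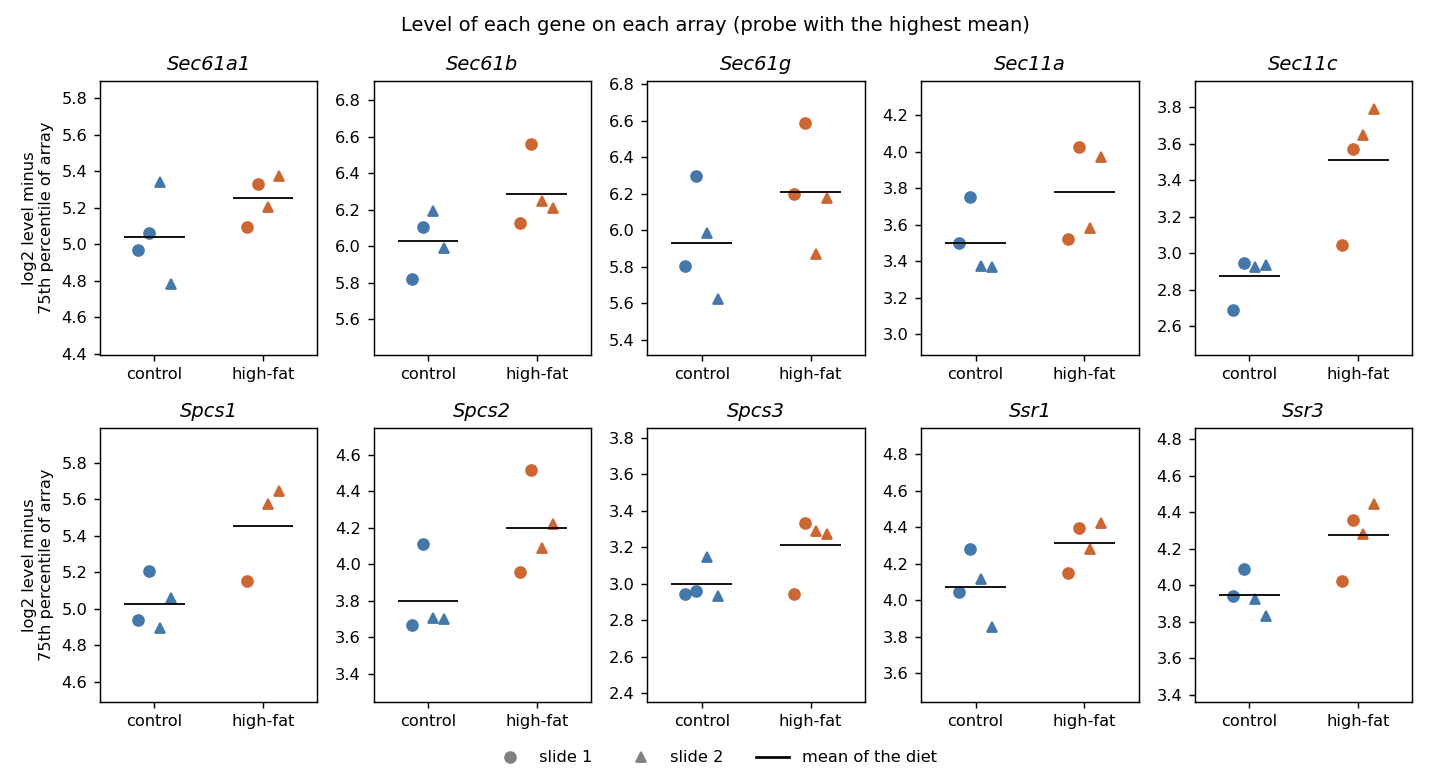
Log2 level of each of the 10 genes on each array (brightest probe, relative to the array's 75th percentile), by diet, with slide 1 as circles, slide 2 as triangles and the mean of each diet as a bar; Spcs1 has 3 high-fat points. The diets are apart only for Sec11c, where control arrays reach 2.95 and high-fat arrays start at 3.05.

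Each slide held 2 arrays of each diet, so the difference could be taken within a slide. The median over the 17 probes was 0.20 on slide 1 and 0.41 on slide 2, while that of all probes was 0.0062 and -0.045. On both slides 14 of 17 probes stood above 0, against 23% of all probes, and the brightest probe of each of the 10 genes did. The exceptions were the upstream Sec61b probe and the most downstream probes of Spcs2 and Ssr1. For 13 probes the difference was larger on slide 2, most for Spcs1, which had 1 high-fat array on slide 1, and for the upstream Sec11a probe (0.044 and 0.52). Sec11c stood at 0.49 and 0.79. A term for the difference between slides passed in limma for 0 of 17 probes at an adjusted p under 0.05, against 0% of all probes, and for 0 at an unadjusted p under 0.05, against 6.52%. Its smallest unadjusted p was 0.061, for the upstream Sec61b probe. With the slide as a block, 6 of the 17 probes had an unadjusted p under 0.05 in limma, against 1897 of 26079 probes. The smallest adjusted p of the 17 was 0.488.

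**Figure D3:**
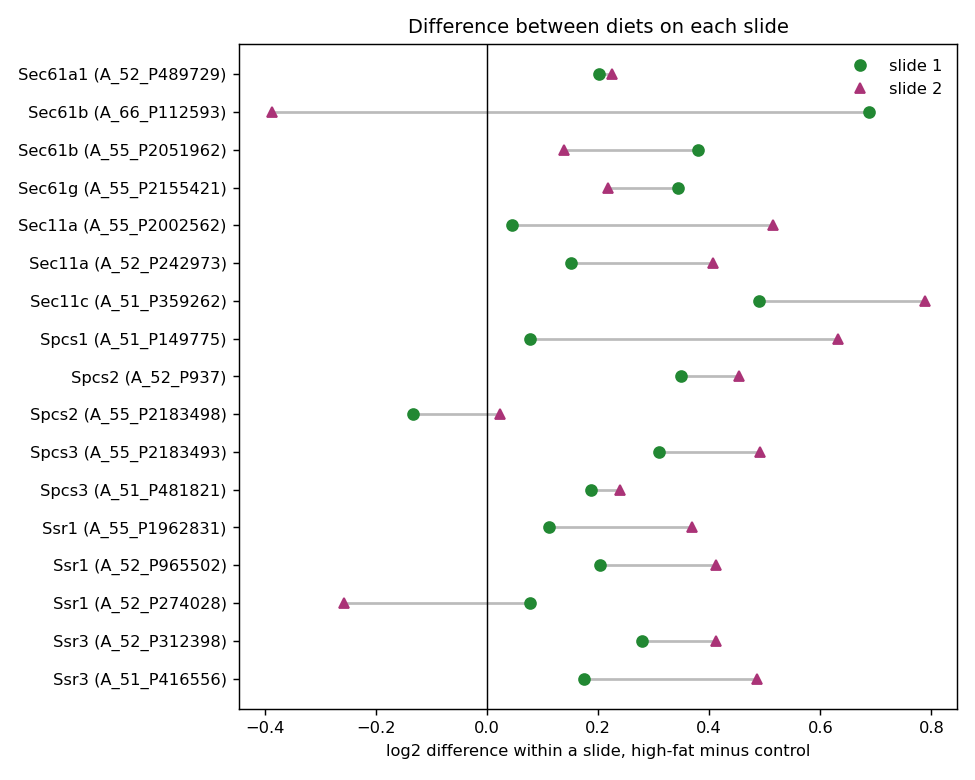
Log2 difference between the diets (high-fat minus control) within each slide for each of the 17 probes, from 2 arrays of each diet, with slide 1 as circles and slide 2 as triangles joined by a line. In this scaling 14 probes lie above 0 on both slides; the upstream Sec61b probe lies at 0.69 on slide 1 and -0.39 on slide 2.

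The 10 genes were also followed array by array. After each gene's brightest probe was centred on its own mean over the 8 arrays, the mean of the 10 genes was -0.25, -0.00039, -0.12 and -0.27 in control and -0.060, 0.34, 0.13 and 0.27 in high-fat samples. Control replicate 2 thus lay above high-fat replicate 1, and the means of the diets overlapped. Spcs1 had no value on high-fat replicate 2, so the mean there is over 9 genes and Spcs1 was centred on its other arrays. High-fat replicate 4 was the highest of the 8 arrays for 8 of the 17 probes and high-fat replicate 2 for 7, and control replicates 1 and 4 were the lowest for 7 and 6. High-fat replicate 1 was the lowest high-fat array for 13 probes. The median of all probes, centred the same way, stayed between -0.038 and 0.061. Ssr3 followed the mean profile most closely, with a root mean square distance of 0.059 on the log2 scale over 8 arrays, and Sec11c least, with 0.22.

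**Figure D4:**
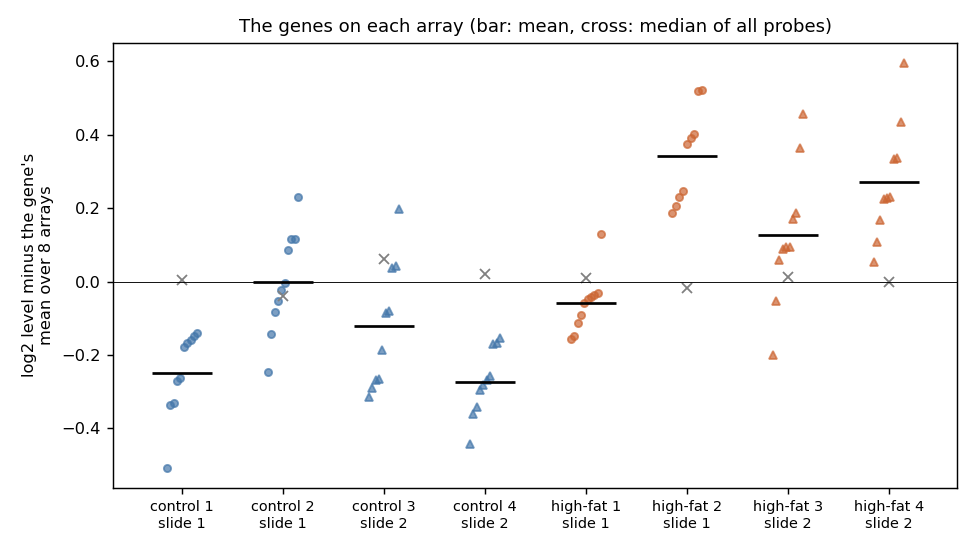
Log2 level of each of the 10 genes on each array (brightest probe) minus the gene's own mean over the 8 arrays, with the mean of the genes as a bar and the median of all probes, centred the same way, as a cross. The bars of high-fat replicates 2, 3 and 4 lie at 0.34 (9 genes, without Spcs1), 0.13 and 0.27. That of high-fat replicate 1 lies at -0.060, below control replicate 2.

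Outside the 10 genes, 5 genes had the smallest distance to that mean profile over the 8 arrays, where the median gene had 0.33. They were Acadvl, a mitochondrial acyl-CoA dehydrogenase (0.035), Atp5g1, a subunit of ATP synthase (0.040), the UFM1 protease Ufsp2 (0.042), the ER selenoprotein Selk (0.050) and the adaptor Sdcbp (0.051). Their log2 differences lay between 0.31 for Selk and 0.36 for Sdcbp, with adjusted p from 0.783 to 0.828 by limma. These genes were chosen by that profile, which holds the difference between the diets, so differences of this size follow from the choice.

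The other genes of protein entry into the ER were taken as lists, with the brightest probe per gene. Of 68 measured genes that are not among the 10, 57 stood above 0 with a median of 0.17. At an unadjusted p under 0.05 in limma 10 were higher and 0 lower, and 0 passed the adjusted threshold. Of all probes tested, 48% stood above 0, and 2.41% were higher and 3.39% lower at that unadjusted p. For 1.64% the groups did not overlap on the higher side. The median over all genes, with the brightest probe each, was 0.00093. These shares are the background to the counts of each list below. In the TRAP complex both remaining subunits stood above 0. Ssr4, the delta subunit, had control levels from 5.60 to 5.77 and high-fat levels from 5.99 to 6.45, which did not overlap, and differed by 0.56 ± 0.12 (unadjusted p = 0.0017, adjusted p = 0.461 by limma). Ssr2, the beta subunit, differed by 0.28 ± 0.19. With them TRAP had 4 of 4 genes above 0 and a median of 0.30, and signal peptidase had 5 of 5 and a median of 0.40.

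Among the partners of the channel, 3 of 5 stood above 0. Tram1, a membrane protein beside the channel, differed by 0.32 ± 0.12 (unadjusted p = 0.026) and its control and high-fat levels did not overlap. Sec62 and Sec63, which serve entry after translation, differed by 0.20 ± 0.12 and 0.29 ± 0.17, while the second alpha subunit Sec61a2 and Tram2 stood at -0.023 ± 0.20 and -0.028 ± 0.21. Of the signal recognition particle and its receptor, which bring ribosomes to the membrane, 10 of 10 genes stood above 0 with a median of 0.18, and Srp9 at 0.41 ± 0.13 alone had an unadjusted p under 0.05.

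The oligosaccharyltransferase list, whose complex adds N-glycans beside the channel, had 13 of 13 genes above 0 with a median of 0.28. Rpn2 at 0.40 ± 0.15 and Krtcap2 at 0.40 ± 0.13 had an unadjusted p under 0.05, and the catalytic subunits Stt3a and Stt3b stood at 0.027 ± 0.15 and 0.16 ± 0.13. The list also holds Dpagt1, which starts the lipid-linked glycan and is no subunit of the complex. Chaperones that pull or fold the entering chain had 8 of 8 genes above 0 with a median of 0.35. Among them were Sdf2l1 at 0.76 ± 0.24, the J-protein Dnajb11 at 0.59 ± 0.15, Hsp90b1 at 0.39 ± 0.12 and BiP (Hspa5) at 0.28 ± 0.15, of which the first 3 had an unadjusted p under 0.05.

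The other lists of this kind had lower medians, that of the ER membrane complex only just below the 0.18 of the signal recognition particle list. The lists were not tested against each other. The ER membrane complex had 10 of 10 genes above 0 with a median of 0.16 and 0 at an unadjusted p under 0.05. Tail-anchored insertion had 5 of 7 above 0 with a median of 0.020, and of these Ubl4 at 0.34 ± 0.14 had an unadjusted p of 0.036. Of the signal peptide peptidase family, which cuts signal peptides within the membrane, 4 of 5 were measured and 2 stood above 0, led by H13 at 0.48 ± 0.17 (unadjusted p = 0.020). Regulators of the unfolded protein response had 4 of 9 above 0 with a median of -0.036. Xbp1, a transcription factor of that response, stood at 0.20 ± 0.13, and Atf4 was measured on 1 control array and 3 high-fat arrays only.

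**Figure D5:**
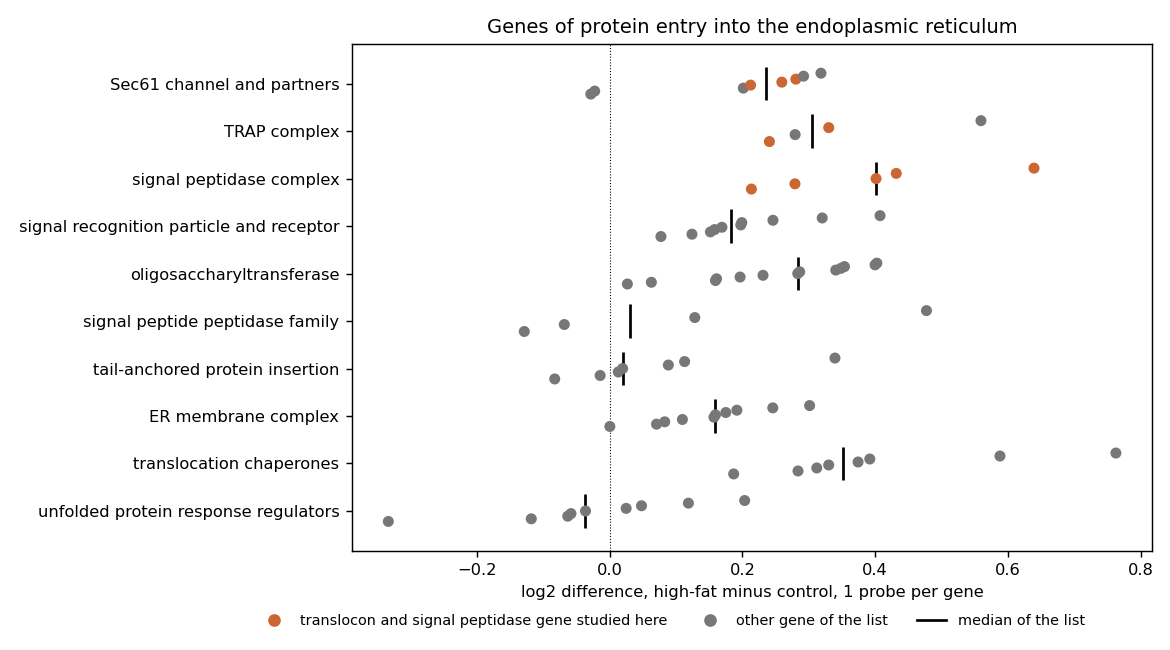
Log2 difference between the diets (high-fat minus control) for 1 probe per gene in lists of protein entry into the ER, with the 10 genes described here in orange, other genes in grey and the median of each list as a bar. The medians run from -0.036 for regulators of the unfolded protein response to 0.40 for signal peptidase.

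RefSeq promoter sequences (GRCm38.p6, 250 bases before to 50 after the start) were searched on both strands for 3 motifs known from genes that respond to ER stress. The table held 7 of the 10 genes. None of the 7 windows held the full consensus of the ER stress element (ERSE), found in 0.119% of 32851 windows, that of ERSE-II, found in 0.0365%, or TGACGTGG, found in 0.676%. The first 2 share CCACG, and the reverse complement of the third contains it. Among 57 related genes in the table, the first motif was in the windows of Dnajc3, Hsp90b1 and Hspa5 and the second in those of Dnajb11 and Krtcap2. No match says only that these letters are not in these windows.

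Markers of other cell types were measured beside these genes. Of all probes tested, 48% stood above 0. Acinar cells are rich in ER, and 18 of 21 acinar markers stood above 0 with a median of 0.14, which was 0.59 on slide 1 and -0.40 on slide 2. The log2 of their summed signal ran from 11.61 to 12.64 in control and from 11.89 to 12.78 in high-fat samples. The median of the 17 probes was 0.20 on slide 1 and 0.41 on slide 2, from 2 arrays of each diet per slide. Of 10 measured plasma and B cell markers, 0 stood above 0, and their summed signal ran from 1.44 to 2.90 in control and from -0.049 to 2.43 in high-fat samples; 6 of the 10 were well above background on all 8 arrays, and Tnfrsf17 did not pass the filter. Beta cell markers had 6 of 12 above 0, with summed signal from 9.65 to 10.17 in control and from 9.79 to 10.19 in high-fat samples.

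The remaining lists are given in the same terms. Alpha cell markers had 2 of 8 above 0 with a median of -0.62, and their summed signal ran from 8.13 to 8.57 in control and from 8.30 to 8.46 in high-fat samples. Delta and PP cell markers had 0 of 6 above 0 with a median of -0.42, and ran from 8.50 to 8.88 and from 8.28 to 8.51. Macrophage markers had 1 of 7 above 0, and their summed signal, from 4.21 to 4.53 in control and from 3.89 to 4.11 in high-fat samples, did not overlap. Ductal, endothelial and stellate markers had 5 of 6, 5 of 6 and 4 of 6 above 0, with medians of 0.080, 0.11 and 0.16 and overlapping sums. The part of any of these cells in the differences of the 10 genes was not tested.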

How the data were processed

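Labelled RNA from the 8 samples was measured on 1-colour Agilent arrays, and spot intensity was deposited as made by Feature Extraction 11.5.1.1, per the file headers. The deposited value table holds log2 values made by the authors, who name limma without version or parameters in the submitters' processing notes; its columns have medians between 8.68 and 8.69, and its centring and filter are not known.

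From the log2 of each processed signal the 75th percentile of its array was taken away. Control spots did not enter these levels. The 125 to 228 outlier spots per array were left out of the probe values, but not of the percentile or the filter on dim probes. For that filter a probe needed a signal well above background on 4 or more of the 8 arrays. Diets were compared probe by probe over 26082 probes with limma 3.58.1 (lmFit, eBayes) in R 4.3.3, with Benjamini-Hochberg adjustment and a threshold of 0.05, and the slide interaction over 26042. Tables used Python 3.11.15 and pandas 2.3.3. The fit was tested on simulated data.

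The 10 genes and all lists were chosen with earlier results of these data known. Every probe of the 10 genes is named, and up to 4 genes per related list by the smallest unadjusted p, plus genes needed to describe a complex. The signal peptide peptidase gene Hm13 is H13 on the array and was matched by that name. Alternatives changed background correction, scaling, values, dim-probe filter, probes per gene, variance model, array weights, slide or replicate block, single slides and single samples.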

Additional observations from a re-analysis of the deposited data

Results flagged for a closer look

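Among 33 groups of 4 arrays (1 probe and 1 diet each), 4 had a sample that stood far from the others by Dixon's criterion, which chance meets in about 1 in 20 groups. For Sec11c, control replicate 1 at 2.69 lay below the other control arrays, which started at 2.93. For the upstream Spcs2 probe, control replicate 2 at 4.11 lay above the other control arrays, which reached 3.71. For the downstream Spcs3 probe, control replicate 3 at 3.15 lay above the rest, which reached 2.96, and high-fat replicate 1 at 2.95 lay below the rest, which started at 3.27. The difference of Sec11c without control replicate 1 was 0.58.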

How the results depend on the processing

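Under every alternative run, 0 of the 17 probes passed an adjusted p of 0.05, and the smallest adjusted p, 0.133, came without high-fat replicate 1. Of all probes, 1 passed in the deposited table, 1 with a trended robust eBayes and 0 to 2 when single samples were left out, 2 without high-fat replicate 1. With quantile normalization the median of the 17 probes was 0.20, against 0.0018 over all probes, and 15 stood above 0. In that limma fit 3 of the 17 had an unadjusted p under 0.05, against 1393 of 26082 probes. There Sec61a1 fell to 0.064, the downstream Sec61b probe to 0.083 and Sec61g to 0.10. The deposited table gave a median of 0.19 and median scaling 0.35. When single samples were left out, the median ran from 0.20, without high-fat replicate 2, to 0.36. The count at an unadjusted p under 0.05 ran from 1, without control replicate 1 or high-fat replicate 4, to 8, without high-fat replicate 1. Of all probes, 1044 of 26081, 1234 of 26081 and 2703 of 26079 had such a p in these fits, in that order. Array weights gave 9 of 17, against 2573 of 26082 probes.

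With normexp the median turned to -0.126, and single probes to -0.231 (Sec61a1), -0.276 and -0.151 (Sec61b, upstream and downstream), -0.126 (Sec61g), -0.161 and -0.126 (Sec11a), -0.019 (Spcs2, upstream), -0.0067 and -0.286 (Spcs3), -0.188 (Ssr1, upstream), 0.042 (Ssr1, most downstream) and -0.095 (Ssr3, downstream). Without the smeared spots 0 signs turned. The downstream Spcs2 probe turned to 0.018 with median scaling, 0.023 on slide 2 and 0.038 without high-fat replicate 3, the most downstream Ssr1 probe to 0.077 on slide 1 and 0.014 without control replicate 3, and the upstream Sec61b probe to -0.39 on slide 2 and -0.034 without control replicate 1. With single samples left out these 3 probes ran from -0.17 to 0.038, from -0.16 to 0.014 and from -0.034 to 0.44. The cause was not tested.

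The labels do not say that replicate numbers pair the samples, and they were not taken to. Deviations of same-numbered samples correlated at 0.24, 0.39, -0.024 and 0.30, and 3 of 4 control samples correlated best with their own number. Same-numbered arrays also lay at neighbouring positions (1 and 2, or 3 and 4) of the same slide. A pairing of the samples and a shared place on the slide thus cannot be told apart in these correlations. With the replicate number as a block, 0 of the 17 probes and 0 of all probes passed, and the median stayed at 0.28. In that limma fit 7 of the 17 probes had an unadjusted p under 0.05, against 2435 of 26078 probes.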
